A study of Homo sapiens with 2 samples.

Results

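Cadherins, the catenins that bind them and the proteins of the desmosome were followed in IGROV1-R10 cells, a human ovarian carcinoma cell line known as a cisplatin-resistant derivative of IGROV1. The genes were taken by symbol: the numbered cadherins (CDH), the desmocollins (DSC), desmogleins (DSG) and plakophilins (PKP), DSP, JUP, 7 catenin genes and 3 cadherin-related genes. RefSeq lists 46 such genes. Of these, 42 had a probe set that carried their symbol alone, among 22465 genes measured this way. CTNND1 and CDHR2 shared their probe sets with another symbol, so no value is given for them, and CDH4 and CDH13 were not analysed here.

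The study compared a culture transfected with miR-491-5p with a culture transfected with control miRNA, each read on 1 whole-transcript array. Both received a synthetic duplex at a final 20 nM, 24 hours after seeding, in the same transfection reagent, and each array took 100 ng of total RNA. The time from transfection to harvest is not given in the sources used here. All values below are deposited log2 signals, and every difference is miR-491-5p minus control. With 1 array per group there was no replicate check, so no difference has an error or a p-value, and "higher" and "lower" describe these arrays only. Signals of different probe sets are not on a common scale, so levels were compared between the arrays and not between genes. Because bulk RNA was measured, fewer cells expressing a gene and less RNA per cell cannot be told apart.

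Cadherins are calcium-dependent adhesion proteins that bind cadherins on the neighbouring cell. In adherens junctions their tails bind beta-catenin, which binds alpha-catenin and through it the actin cytoskeleton. In desmosomes the desmogleins and desmocollins bind plakoglobin and plakophilins, which attach to desmoplakin and so to keratin filaments. A miRNA lowers messenger RNAs mainly through pairing of its seed, bases 2 to 8, with sites in their 3′ ends.

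The mature miR-491-5p sequence is shown because its seed (capitals) is what distinguishes the transfected duplex. It is the RefSeq sequence of GRCh38.p14, encoded on the plus strand at chr9:20716120-20716141.
hsa-miR-491-5p: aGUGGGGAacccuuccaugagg
Of 2370 mature human miRNAs in that table, it was the only one with this seed. Transcript sequences were not used here, so matches to the seed in the adhesion genes were not searched.

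Of the 42 genes, 17 passed the signal filter, meaning that at least 1 of the arrays reached 5.55, the median over everything deposited. All 17 were at or above it on both arrays. Just inside stood CDH23, at 5.57 and 5.72 on the miR-491-5p and control arrays, and just outside CDH3, at 5.43 and 5.50. Of all 22465 genes measured, 14373 passed, and every count of genes past the filter below is to be read beside that share. Of 14 genes listed for ovarian carcinoma and epithelium, 11 passed. Among them were PAX8 (14.59 with miR-491-5p against 14.77 in the control), EPCAM (13.29 against 12.93) and, nearer the filter, MUC16 (5.94 against 5.89). WFDC2, MSLN and ESR1 did not pass, so this count alone does not identify the cell type.

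In these 17 adhesion genes, CDH5 was far lower with miR-491-5p, DSC2 and PKP2 were higher, and 9 lay within 0.2 of 0. Of all genes past the filter, 67.4% lay within 0.2 of 0. One of the 17 (5.88%) was at least 2-fold lower and 1 was at least 2-fold higher. Across all 14373 genes past the filter, 0.758% and 0.0487% were that far lower and higher. At 1.5-fold, 1 was lower and 2 were higher (11.8%), against 3.62% and 0.675% of all genes. The middle 95% of all genes lay between -0.68 and 0.37, and 5 of the 17 fell outside it, CDH5 below and DSC2, PKP2, CDH1 and DSG2 above. The median of the 17 was -0.05, beside -0.07 over all genes, and 64.7% had a negative difference, beside 64.8% of all genes. After the differences were centred on the median of all genes, 7 of the 17 were negative and 10 positive in place of 11 and 6. CDH16, CDHR5, CTNNA1 and DSP changed sign, each lying within 0.06 of 0 as deposited. The genes were selected with earlier results of these arrays known, so these counts are a description.

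**Figure D1:**
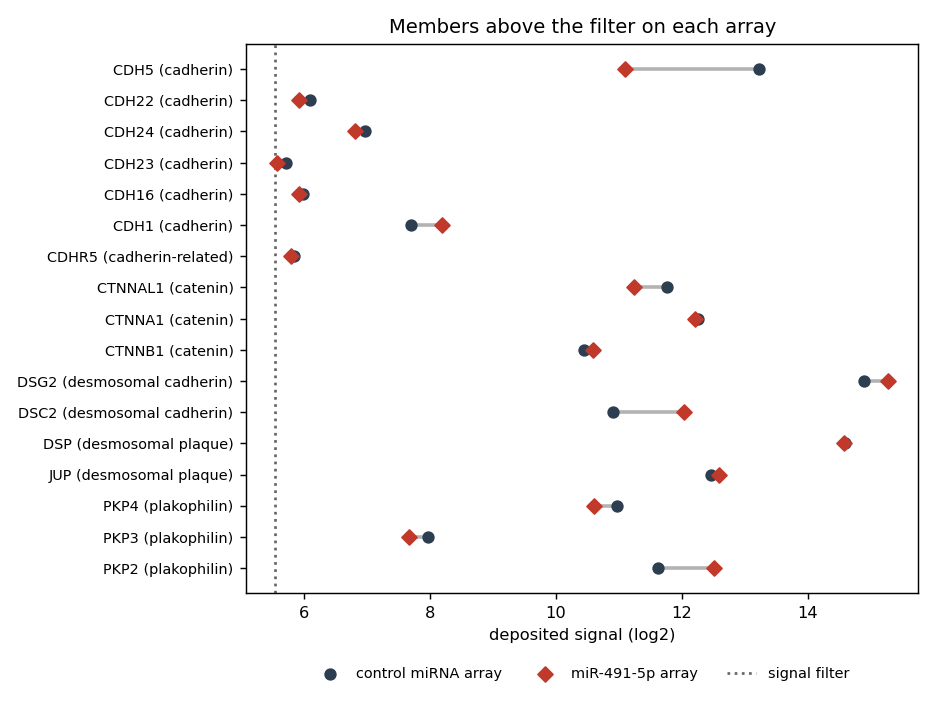
Deposited log2 signal (horizontal axis) of the 17 genes past the filter on the control array (circles) and the miR-491-5p array (diamonds), with the filter at 5.55 as a dotted line. The long bars are those of CDH5, which read 13.23 in the control and 11.10 with miR-491-5p, and of DSC2 and PKP2, which lay higher with miR-491-5p; each gene has its own probe set, so rows are not to be ranked by level.

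**Figure D2:**
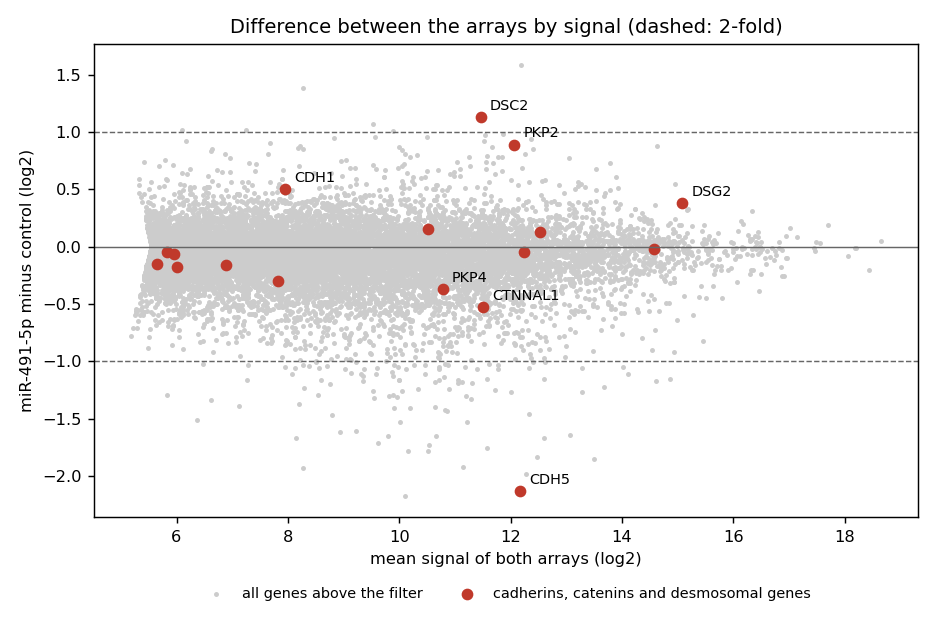
Difference between the arrays (vertical axis, log2) against mean signal (horizontal axis, log2) for 14373 genes past the filter (grey) and the 17 adhesion genes (red), with dashed lines at 2-fold. CDH5 lies near the bottom of the cloud at -2.13, and DSC2 (1.13) is the only adhesion gene above the upper line.

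Among the classical and other numbered cadherins, CDH5 was the one with a large difference. CDH5 encodes VE-cadherin, the adherens junction cadherin of blood vessel endothelium. Its signal was 13.23 on the control array and 11.10 on the miR-491-5p array, a difference of -2.13 (4.38-fold lower). Only 1 of 14373 genes had a more negative difference. The value was -2.06 after median centring and after a loess correction for signal. In the band of mean signal from 11 upwards, 2830 genes had a middle 95% from -0.78 to 0.38, so CDH5 stood outside the spread of similarly bright genes.

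CDH1, which encodes E-cadherin, the main cadherin of epithelial adherens junctions, differed in the other direction. It read 7.70 on the control array and 8.20 with miR-491-5p, a difference of 0.50 (1.41-fold higher), and 158 genes had a larger positive difference. It stayed short of 1.5-fold after centring too, at 0.57. The other cadherins past the filter differed little. CDH24, a type II cadherin, read 6.97 on the control array and 6.81 with miR-491-5p (-0.16), and CDH22, known from brain, 6.10 and 5.92 (-0.18). CDH23, a component of the tip links of inner ear hair cells, differed by -0.15, CDH16, the kidney-specific cadherin, by -0.06, and CDHR5, a protocadherin of the intestinal brush border, by -0.05. None of these 5 lay outside the middle 95% of all genes.

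The remaining 15 numbered cadherins were below the filter on both arrays, with signals from 4.36 to 5.50 and differences from -0.21 (CDH8) to -0.01 (CDH10). They include CDH2, or N-cadherin (5.16 with miR-491-5p, 5.29 in the control), the cadherin that mesenchymal cells commonly carry, CDH3, or P-cadherin, and the type II cadherins CDH6 (4.60 and 4.73) and CDH11 (5.05 and 5.12). CDH7, CDH9, CDH10, CDH12, CDH18, CDH19 and CDH20, also type II, read no higher than 4.89. No change from E-cadherin to N-cadherin signal, or the reverse, could be read from these arrays, since CDH2 was below the filter on both. Over all 25 adhesion genes below the filter the median difference was -0.10 and each difference was negative, beside a median of -0.08 over the 8092 genes below the filter. The share of negative differences among those 8092 was not computed. The shared sign includes the offset between the arrays, whose medians were 5.51 with miR-491-5p and 5.59 in the control. After centring, the 25 genes ran from -0.14 (CDH8) to 0.06 (CDH10) and no longer shared a sign. Signal over background is unknown, so values below the filter do not show absence.

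CDH5 is also an endothelial marker, and the other endothelial genes were therefore read beside it. Of 17 listed, 6 passed the filter, and their differences over all 17 ran from -0.35 (SOX18) to 0.16 (PECAM1). Those that passed were SOX17, EGFL7 (6.92 with miR-491-5p against 6.89), CLDN5 (6.33 against 6.58), ESAM (5.71 against 5.94), ENG (5.57 against 5.72) and SOX18 (5.46 against 5.81, on the control array only). The other 11, among them PECAM1 (4.51 with miR-491-5p against 4.35), VWF (5.07 against 5.20), KDR (4.51 against 4.57), TEK, TIE1, ERG and CD34, were below the filter on both arrays. The mean log2 signal of the list was 5.49 with miR-491-5p and 5.58 in the control. SOX17, a transcription factor of endothelium that is also known from ovarian carcinoma, read 10.71 and 10.75. None of these 17 differed by 1.5-fold. Fibroblast markers passed the filter in 2 of 8 cases and leukocyte markers in 3 of 8, with list means of 5.01 and 5.70 with miR-491-5p against 5.04 and 5.88.

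None of the 6 catenin genes with a value reached 1.5-fold, and CTNND1, which shared its probe set with another symbol, has no value. CTNNB1, which encodes beta-catenin, the link between cadherin tails and alpha-catenin and the transcriptional effector of WNT signalling, read 10.44 on the control array and 10.59 with miR-491-5p (0.15). CTNNA1, which encodes alpha-E-catenin, the actin-binding partner, read 12.26 and 12.21 (-0.05). CTNNAL1, which encodes alpha-catulin, a relative of alpha-catenin, read 11.77 and 11.24, a difference of -0.53 (1.44-fold lower), and 655 genes lay lower. It did not reach 1.5-fold, and it was at -0.46 after centring. The neural CTNNA2 and CTNND2 and CTNNA3, known from heart and testis, were below the filter, with signals from 4.60 to 5.13.

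The desmosomal genes past the filter included DSG2, DSC2, JUP, PKP2 and DSP, which between them cover each layer of the structure. Of 13 measured, 7 passed, 4 with a positive and 3 with a negative difference, and their median was 0.13. Over all genes past the filter 64.8% were negative and the median was -0.07. The other 10 adhesion genes past the filter had a median of -0.10. After centring or loess 5 of the 7 desmosomal genes were positive, because DSP changed sign. Of the other 10, 2 were positive as deposited and 5 after centring. Centring by construction leaves all genes about evenly split between the signs. This split of the adhesion genes was not part of the planned design. It places DSC2 and PKP2 among the desmosomal genes and CDH5 among the others, so the medians are a description.

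DSC2, a desmosomal cadherin of simple epithelia and heart, read 10.90 on the control array and 12.03 with miR-491-5p, a difference of 1.13 (2.19-fold higher). Only 2 of 14373 genes had a larger positive difference. DSG2, the desmoglein that is its usual partner in those tissues, went the same way by less, from 14.89 to 15.27 (0.38, 1.30-fold), with 322 genes higher. For DSC2 the difference was 1.20 after centring and 1.21 after loess, and for DSG2 it was 0.45 and 0.43.

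The plaque proteins did not share one direction. PKP2, a plakophilin of simple epithelia and heart that recruits desmoplakin to the plaque, read 11.62 on the control array and 12.51 with miR-491-5p, a difference of 0.89 (1.85-fold higher), and 16 genes lay above it. It stayed below 2-fold under both scalings, at 0.96. PKP3, found in most epithelia, read 7.97 and 7.67 (-0.30), and PKP4, a plakophilin relative found in adherens junctions as well as desmosomes, read 10.97 and 10.60 (-0.37, 1.29-fold lower). JUP, which encodes plakoglobin, the catenin common to desmosomes and adherens junctions, read 12.46 and 12.59 (0.13). DSP, which encodes desmoplakin, the anchor for keratin filaments, read 14.59 and 14.57 (-0.02). So within the desmosome the largest positive differences belonged to DSC2 and PKP2, and desmoplakin and plakoglobin, which every desmosome uses, differed by less than 0.2.

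The desmosomal genes known mainly from stratified epithelia were below the filter. DSC1, DSC3, DSG1, DSG3 and DSG4 read between 4.50 and 5.20, with differences from -0.20 (DSG3) to -0.07 (DSG1). PKP1, the plakophilin of the upper epidermis, read 5.33 with miR-491-5p and 5.49 in the control. Keratinocyte markers were low in part: of 7 measured, 4 passed the filter; KRT14 (5.24 on both arrays), KRT1 and IVL were below it, while SFN read 14.67 against 15.31. Of the 7 measured cardiomyocyte markers, 3 passed, and their differences lay between -0.20 and 0.04 over the whole list.

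In chromosome order, CDH5 and DSC2 lie beside related genes that did not pass the filter, while PKP2 is the only adhesion gene on its chromosome. RefSeq (GRCh38.p14) places 11 of the 42 genes on chromosome 18 and 7 on chromosome 16. The desmosomal cadherins lie side by side on chromosome 18 in the order DSC3, DSC2, DSC1, DSG1, DSG4, DSG3 and DSG2, and of these 7 only DSC2 and DSG2 passed the filter. The genes flanking DSC2, DSC3 (-0.14) and DSC1 (-0.10), did not share its positive difference, although both were below the filter.

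On chromosome 16, CDH5 follows CDH8 and CDH11, both below the filter. Among the 5 measured protein-coding genes on each side of CDH5, 7 passed the filter and all 7 had negative differences, from -1.07 to -0.09, where 64.8% of all genes past the filter were negative. The lowest of them was SLC38A7, an amino acid transporter, at 9.55 in the control and 8.48 with miR-491-5p. The adjoining genes BEAN1 and TK2 differed by -0.23 and -0.18. Around PKP2 on chromosome 12, 8 of 10 neighbours passed, 5 negative and 3 positive, from -0.33 to 0.15. Around DSC2, 3 of 10 passed, 0 negative and 2 positive, from 0.00 to 0.38, DSG2 among them. Neighbours were read only for CDH5, DSC2 and PKP2, the adhesion genes with the largest differences, and this was not part of the planned design. The counts are therefore a description, and a regional effect was not tested.

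**Figure D3:**
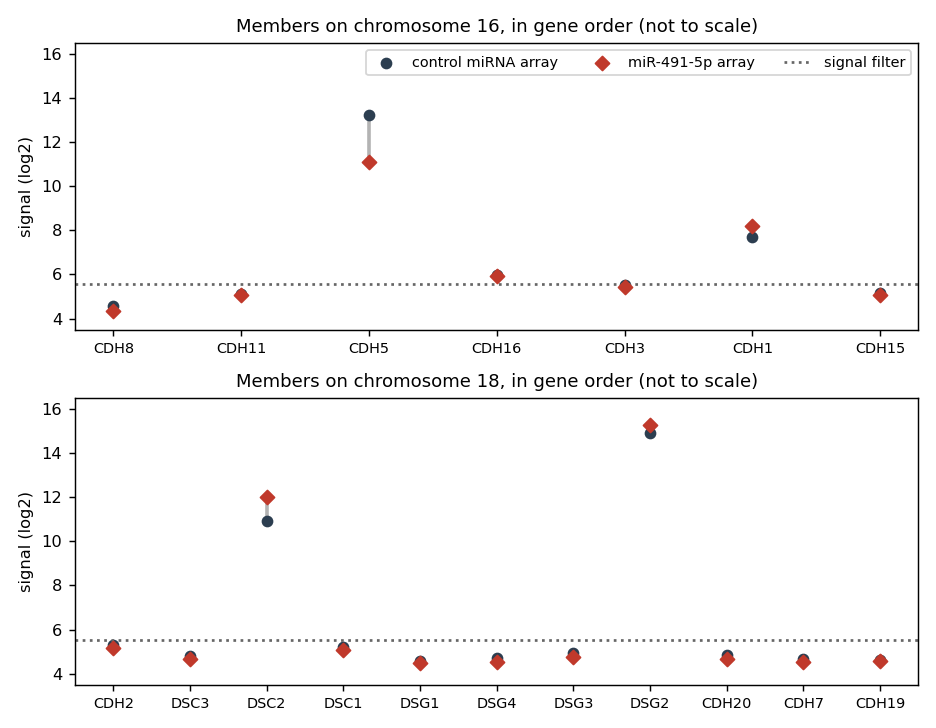
Deposited log2 signal (vertical axis) of the adhesion genes on chromosomes 16 and 18 in gene order, evenly spaced, on the control array (circles) and the miR-491-5p array (diamonds), with the filter at 5.55 dotted. On chromosome 16 only CDH5, CDH16 and CDH1 pass the filter, and on chromosome 18 only DSC2 and DSG2, both higher with miR-491-5p.

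Promoters from the desmosomal cadherin cluster are shown because 2 of its genes, DSC2 and DSG2, passed the filter and differed in the same direction. The other genes of the cluster were below the filter, so their differences are not informative. DSC1 and DSG3 are printed beside them. The windows of DSC3 and DSG1 were searched but are not printed, and no promoter was available for DSG4. Each is the 250 bases before the RefSeq start (GRCh38.p14), in the direction of the gene. Capitals mark the E-box CAGGTG or its reverse complement CACCTG, the letters that SNAI and ZEB repressors are known to bind in the CDH1 promoter. The DSC2 window is chr18:31102422-31102671 on the minus strand, DSG2 is chr18:31497927-31498176 on the plus strand, DSC1 is chr18:31162857-31163106 on the minus strand and DSG3 is chr18:31447491-31447740 on the plus strand.
DSC2: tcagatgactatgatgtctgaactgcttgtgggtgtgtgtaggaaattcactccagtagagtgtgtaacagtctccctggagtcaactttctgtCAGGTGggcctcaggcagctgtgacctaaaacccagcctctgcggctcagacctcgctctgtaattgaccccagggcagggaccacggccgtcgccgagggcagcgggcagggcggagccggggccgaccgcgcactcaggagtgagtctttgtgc
DSG2: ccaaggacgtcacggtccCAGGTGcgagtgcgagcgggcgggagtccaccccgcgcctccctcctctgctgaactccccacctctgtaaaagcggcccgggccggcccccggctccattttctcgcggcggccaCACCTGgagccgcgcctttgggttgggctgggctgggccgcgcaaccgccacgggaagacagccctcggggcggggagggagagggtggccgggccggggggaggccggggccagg
DSC1: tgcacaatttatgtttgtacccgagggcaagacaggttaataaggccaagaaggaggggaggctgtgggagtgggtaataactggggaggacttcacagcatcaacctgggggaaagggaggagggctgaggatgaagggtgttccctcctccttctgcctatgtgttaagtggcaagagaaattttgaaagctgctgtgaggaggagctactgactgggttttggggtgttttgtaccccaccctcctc
DSG3: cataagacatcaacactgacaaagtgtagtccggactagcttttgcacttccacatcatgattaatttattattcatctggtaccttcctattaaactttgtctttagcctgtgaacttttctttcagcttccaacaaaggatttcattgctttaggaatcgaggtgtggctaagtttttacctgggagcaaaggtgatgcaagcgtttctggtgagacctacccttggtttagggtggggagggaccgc
The DSC2 window holds 1 such E-box, starting 156 bases before the gene start, and the DSG2 window holds 2, starting 232 and 116 bases before it. Among the genes of the cluster below the filter, DSC1, DSC3 and DSG3 have none in their windows, but DSG1 has 1, starting 245 bases before its start, so the motif does not separate the genes with signal from the others. Both strands were searched. The motif occurs in 17.5% of 35116 promoters of this length and in 4 of the 28 adhesion genes whose promoter was in the table (14.3%). Among adhesion genes past the filter it was in 3 of 9 (DSP, DSC2 and DSG2), beside 16.7% of measured genes past the filter. With so few promoters, these matches are a description of the letters only.

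Base composition followed the filter. The 9 adhesion genes past the filter with a promoter in the table had a GC content of 59.6% to 80.8% (median 75.2%), and the 19 below it 38.0% to 67.6% (median 48.0%). Over all measured genes the median GC content was 64.8% past the filter and 53.6% below it. The GC box GGGCGG, searched with its reverse complement CCGCCC, was in all 9 and in 5 of the 19. Among all measured genes it was in 65.4% of 10188 promoters past the filter and 33.8% of 5059 below it, so the split runs the same way in the array as a whole. The motif TATAAA (reverse complement TTTATA) was in none of the 28, beside 10.7% of all promoters, and the ETS core CCGGAA (reverse complement TTCCGG) was in 1, CTNNA1, beside 14.5%. CDH5, PKP2 and CDH1 were among the 14 genes with no promoter in the table, and 8 of those 14 were past the filter.

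Genes that work with cadherins were read from lists of partners. In each list, counts of negative and positive differences are to be read beside all genes past the filter, of which 64.8% were negative as deposited. Adherens junction partners, which connect cadherins and nectins to actin, differed little: of 23 past the filter, none reached 1.5-fold, 17 were negative and 6 positive, and the median was -0.13 (-0.06 after centring). CBLL1, or Hakai, a ubiquitin ligase known to act on E-cadherin, differed by -0.51 and LIMA1, which links catenins to actin, by -0.50. NECTIN1, a nectin, differed by -0.35 and VCL, or vinculin, by -0.34.

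Keratins, plakins and other partners on the desmosome side included 2 genes of 13 past 1.5-fold, both lower, where 3.62% of all genes were that far lower and 0.675% higher. Of the 13 partners past the filter, 11 were negative and 2 positive, with a median of -0.18. PLEC, which encodes the cytolinker plectin, read 9.87 on the control array and 9.05 with miR-491-5p (-0.82, 1.77-fold lower), and KRT18, a keratin of simple epithelia, 15.58 and 14.98 (-0.60, 1.52-fold lower, and -0.53 after centring). PERP, a desmosomal membrane protein, differed by 0.09. KRT5, DES and CDSN passed the filter on 1 array only, which fixed their sign.

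Genes that act on beta-catenin had a median of -0.04 over 23 past the filter, with 12 negative and 10 positive. The 2 past 1.5-fold, both lower and read against the same shares of all genes, were BCL9 (-0.60) and BCL9L (-0.67), the paired coactivators that tie beta-catenin to Pygopus. BCL9 read 12.13 and 11.53 on the control and miR-491-5p arrays and was at -0.53 after centring, short of 1.5-fold. The kinase CSNK1A1, which primes beta-catenin for degradation, differed by 0.40, and the WNT target AXIN2 by 0.05.

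Repressors of cadherin genes included 1 of 9 at least 2-fold lower, beside 0.758% of all genes. SNAI1, a zinc-finger repressor of CDH1, read 6.99 on the control array and 5.97 with miR-491-5p (-1.02, 2.03-fold lower, but -0.95 after centring). ZEB1 differed by -0.30, TCF3 by -0.51 and SNAI3 by 0.06, and SNAI2 and TWIST1 were below the filter. CDH1 was higher where SNAI1 was lower, but with 1 array per group the relation between them was not tested.

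Proteases that cut cadherins included 1 of 14 at least 2-fold lower, beside the same 0.758%. This was CAPN1, which encodes the calcium-dependent protease calpain-1. It read 11.95 on the control array and 10.62 with miR-491-5p (-1.33, 2.51-fold lower). The membrane sheddase ADAM10, which releases the outer part of E-cadherin and VE-cadherin, differed by 0.12 and ADAM17 by -0.41. The median over 14 past the filter was -0.02, with 7 negative and 7 positive.

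Other cadherin superfamily genes were mostly below the filter. Of 26 measured, 7 passed, none reached 1.5-fold and the median was -0.13. The giant cadherin FAT1 differed by -0.28, the planar polarity gene CELSR2 by -0.22, CDHR3, which passed on the control array only, by -0.15 and PCDH1 by -0.13.

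**Figure D4:**
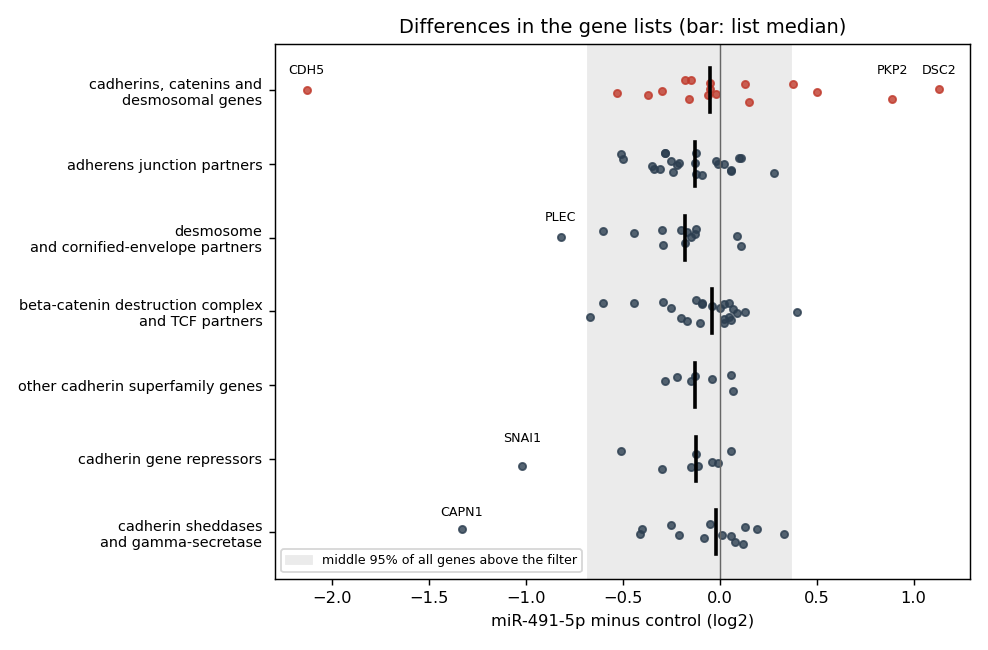
Difference between the arrays (horizontal axis, log2) for each gene past the filter in the adhesion genes (red, top) and the 6 partner lists (dark), with a black bar at each list's median and the middle 95% of all genes shaded, from -0.68 to 0.37; vertical scatter within a row has no meaning. CDH5, DSC2 and PKP2 lie far from their list's median of -0.05, and in the partner lists PLEC, SNAI1 and CAPN1 lie furthest to the left.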

How the data were processed

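Total RNA was measured on 2 arrays, 1 per group, and samples were grouped by their transfection label. The authors deposited a log2 signal per probe set. The submitters' processing notes name RMA, with no version, and its usual log base was assumed. They ran from 2.53 to 19.22 and from 2.58 to 19.18 (medians 5.51 and 5.59 for miR-491-5p and control), and the number of arrays limits the precision. Of 67528 probe sets, 23781 carried 1 symbol in GEO's platform annotation, 1543 several and 42204 none; 21497 of the first matched RefSeq by Entrez ID, which changed 0 symbols. Each gene took its brightest probe set; all 42 adhesion genes had 1. Genes passed where the higher value reached 5.55.

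Differences were taken as deposited, with no test. Genes named were all adhesion genes past the filter and, per partner list, those past 1.5-fold or the 4 largest; PERP, CSNK1A1, AXIN2, ZEB1, TCF3, SNAI3, SNAI2, TWIST1, ADAM10 and ADAM17 fall outside this rule and were added, for their known roles, after their values were seen. The genes and lists were chosen with earlier results of these data known. Alternatives were median centring, loess (span 0.3), no filter, both arrays past it, mean probe sets and 3-fold. The procedure was tested on simulated data. Promoters and the miRNA came from RefSeq tables (GRCh38.p14). Python 3.11.15, numpy 2.4.6, pandas 2.3.3 and statsmodels 0.14.6 were used.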

Additional observations from a re-analysis of the deposited data

How the results depend on the processing

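No paired analysis was possible because there was a single array on each side, which also leaves no replicate to omit. The number of adhesion genes past 2-fold (1 lower, 1 higher) and past 1.5-fold (1 lower, 2 higher) was the same under median centring, loess, no filter, both arrays past the filter and mean probe sets. The last 2 could not differ, because all 17 genes passed on both arrays and each had 1 probe set. Dropping the filter could not change these counts either, because it added only genes with differences from -0.21 to -0.01. At 3-fold, CDH5 remained (1 lower) and the count of higher genes was 0, against 0.132% and 0% of all genes. The median of the adhesion genes, -0.05 as deposited, was 0.02 under centring, 0.02 under loess and -0.09 with no filter. Under centring and loess, in that order, the medians became -0.06 and -0.06 for adherens junction partners (-0.13 as deposited), -0.11 and -0.10 for desmosome partners (-0.18), 0.03 and 0.03 for beta-catenin partners (-0.04), -0.06 and -0.06 for other cadherin superfamily genes (-0.13), -0.05 and -0.05 for repressors (-0.12), and 0.05 and 0.04 for proteases (-0.02). These moves follow from the construction of the scalings, which raised each adhesion gene by 0.070 and by 0.047 to 0.089. No called adhesion gene changed sign, and none could, because the called differences were far larger than these shifts. Seed matches were not run, and signal over background is unknown.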

Other observations

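The clustered protocadherins, cadherin relatives known from neurons that are encoded in tandem arrays, were chosen for this paragraph after their values were seen. Of 26 with a probe set of their own symbol, 5 passed the filter, with differences from -0.51 to 0.10 and a median of 0.03. PCDHGB7 read 6.31 with miR-491-5p and 6.82 in the control (-0.51), while PCDHGA10 (7.40 and 7.37), PCDHB11 (7.02 and 6.92), PCDHB14 (5.61 and 5.52) and PCDHGB2 (6.21 and 6.22) differed by no more than 0.10. Protocadherins of these arrays share sequence with each other, so their values are uncertain.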
